A study of Homo sapiens with 4 samples.

Results

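The nuclear genes for subunits of the respiratory chain and of ATP synthase were followed through 4 LNCaP RNA-seq libraries, 1 for each condition. A gene belonged to the set if it was protein-coding and its symbol was NDUFA, NDUFB, NDUFC, NDUFS or NDUFV with a number, or began with UQCR, COX4 to COX8 or ATP5, and if its RPKM (a read density corrected for transcript length and for how many reads the library mapped) was at least 1 in at least 1 library. Of 83 such symbols in the reference, 79 occurred in the expression tables, and ATP5MGL, COX4I2, COX6A2 and COX7A1 were not analysed here. Another 2 were read-through loci that join a subunit gene to its neighbour, and COX8C, listed at 0, 0, 0 and 0.35 RPKM, stayed under the limit. The set therefore held 76 of the 14626 genes kept: 36 of complex I, 9 of complex III, 13 of complex IV and 18 of ATP synthase. In all 4 libraries, 75 of the 76 reached 1 RPKM and 73 reached 10 RPKM.

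Complexes I, III and IV sit in the inner mitochondrial membrane, carry electrons from NADH through ubiquinone and cytochrome c to oxygen, and pump protons as they do so. ATP synthase lets the protons flow back through a rotor ring and uses the energy to make ATP. Each of these complexes joins subunits from nuclear genes with a few hydrophobic subunits from mitochondrial DNA, and the tables held 0 genes of the mitochondrial genome.

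LNCaP cells, a human prostate cancer line that responds to androgen, had been transfected for 24 h with empty vector or with the plasmid AR1-651. Cells of each kind then went without or with ailanthone (AIL), a natural compound, for another 12 h. The groups are thus empty vector cells, the same given AIL (empty vector + AIL), AR1-651 cells, and these given AIL (AR1-651 + AIL), all of them transiently transfected cells of the same line. Values below follow this order where 4 are given. With 1 library for each condition, no difference has a replicate check and no test was made.

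Luminal prostate markers were at 1 RPKM or more in every library for 7 of 7 genes, while the one basal marker in the tables and all endothelial and muscle markers were under 1 RPKM. Of the other lists, 1 of 3 fibroblast and 1 of 2 leukocyte markers exceeded 1 RPKM, with summed levels of 2.21 to 5.02 and 8.67 to 12.7 RPKM. The androgen-induced gene KLK3 measured 287, 303, 1442 and 582 RPKM, and TMPRSS2 36.7, 16.6, 276 and 65.1 RPKM. Libraries are named by their labels throughout, and expression from the plasmid is not reported here. Summed RPKM ranged from 502594 with empty vector to 646882 with AR1-651, and cytosolic ribosomal protein genes took 23.1%, 22.3%, 33.0% and 25.5% of it. Absolute read depth is unknown. A rough estimate of relative depth from short genes at low RPKM gave 1, 0.74, 1.09 and 0.75, lower in both libraries with AIL. The ratios to empty vector rest on 16 of 53, 23 of 59 and 17 of 49 such genes.

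The subunit genes were among the well expressed genes of these cells. Their median RPKM was 152 and 192 in empty vector cells without and with AIL, and 213 and 193 in AR1-651 cells. Summed over the set, RPKM came to 15401, 18270, 26883 and 20545, which was 3.06%, 3.41%, 4.16% and 3.63% of the library. As a share of all RPKM the sum was thus highest in AR1-651 and lowest in empty vector. The AR1-651 library gave the highest RPKM for 50 of the 76 genes, against 14.9% of all genes kept, and empty vector the lowest for 51, against 22.5%. The remaining genes were highest in AR1-651 + AIL (13 genes, against 26.2% of all genes), empty vector + AIL (9, against 21.3%) or empty vector (4, against 37.6%).

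Within each complex the levels spanned a wide range. The highest of complex I was NDUFB4, an accessory subunit of the membrane arm, at 1029, 1227, 1542 and 1377 RPKM. Near its lower end was NDUFA5, an accessory subunit of the matrix arm, at 14.4, 16.5, 22.7 and 24.9 RPKM. UQCRH, the hinge protein that sits beside cytochrome c1, led complex III in every library. COX6A1 and COX7C, small subunits around the catalytic core, led complex IV, and COX6A1 measured 798, 945, 1873 and 1217 RPKM. In ATP synthase the order at the top changed: ATP5F1B, the catalytic beta subunit, was highest with empty vector (518, 486, 515 and 403 RPKM), whereas ATP5ME, subunit e of the membrane part, was highest in the other libraries (437, 618, 943 and 715 RPKM). The complex IV isoforms best known from testis were low, with COX6B2 at 3.33, 3.01, 5.41 and 4.20 RPKM and COX7B2 at 3.28, 3.08, 3.35 and 5.85 RPKM.

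**Figure D1:**
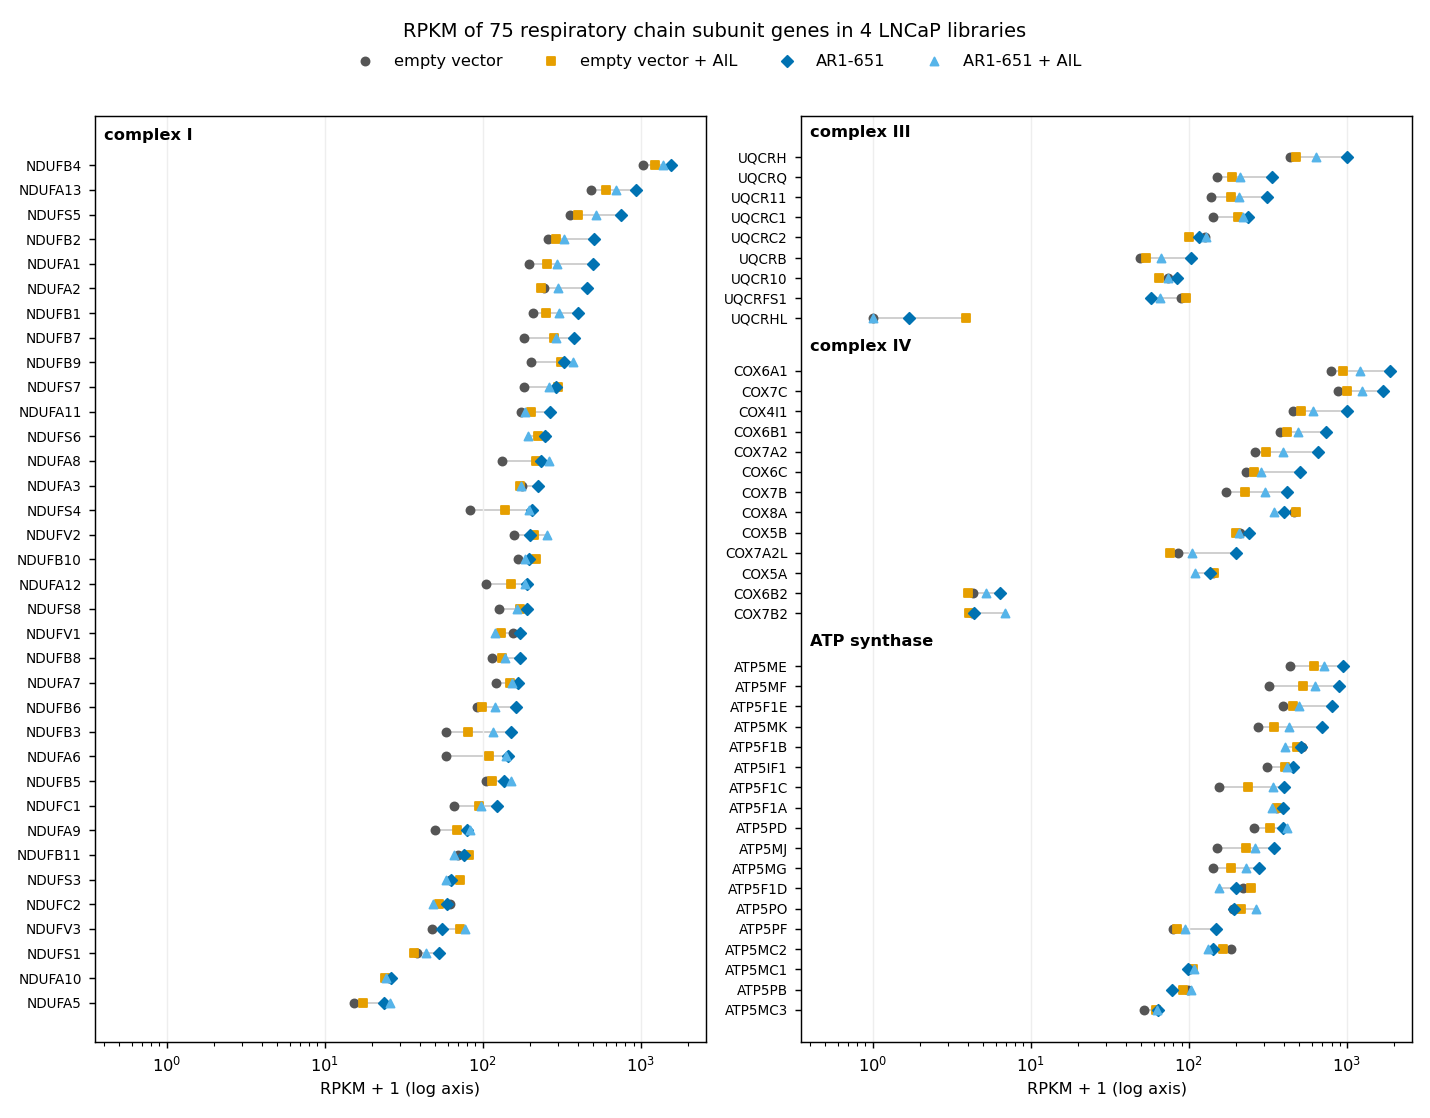
RPKM + 1 on a log axis for 75 of the 76 subunit genes, grouped by complex, with 1 symbol for each of the 4 libraries and a grey line over their range. The AR1-651 symbol is furthest to the right for 49 of them, and COX6B2, COX7B2 and UQCRHL lie far below the rest.

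UQCRHL was listed at 0, 2.90, 0.69 and 0 RPKM. It is a nearly identical copy of UQCRH, the treatment of reads that match several places is not given in the sources used here, and its values are uncertain. It stays in the counts and medians, where a difference against a library at 0 depends on the pseudocount, and values without it are given where they differ. The same limit touches other subunits: the reference holds 185 pseudogenes with the symbol of one of these genes, of which 1 was in the tables. The read-through locus ATP5MF-PTCD1 was listed at 2.95, 0, 2.91 and 4.85 RPKM and NDUFC2-KCTD14 at 0, 0, 1.33 and 0.92 RPKM, both far under ATP5MF and NDUFC2. COXFA4, once named NDUFA4 and now placed in complex IV, is outside the rule by its present symbol, and its 129, 154, 295 and 192 RPKM were highest in AR1-651.

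The first comparison asks what differed with AR1-651 when no AIL was given. On the scale of log2(RPKM + 1), the median difference of the 76 genes between AR1-651 and empty vector was 0.68, against -0.30 for all genes kept. Of the 76, 65 were higher with AR1-651 and 11 were lower, against 32.2% and 67% of all genes. A gene was called raised or lowered where this difference was at least 2-fold. By that rule 22 of the 76 (28.9%) were raised, against 4.01% of all genes kept, and none was lowered, against 11.6%. At 1.5-fold, 42 were raised (10.7% of all genes) and 1, UQCRFS1, was lowered (32.3%). Scaling the libraries to equal summed RPKM cut the raised genes to 4, with 26 of the 76 then below their empty vector level, and scaling by median ratios gave 35 raised. These scalings moved the median of all genes to -0.65 and -0.09, and the distance of the set's median from it (0.98 as deposited) was 0.96 and 0.99. The values of 50 genes were higher with AR1-651, and of 3 lower, under every setting tried.

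By complex, the median difference was 0.61 for complex I, 0.76 for complex III (0.91 without UQCRHL, whose own difference is that median), 0.98 for complex IV and 0.57 for ATP synthase. Raised genes numbered 6 of 36, 4 of 9, 6 of 13 and 6 of 18. Each of these medians stayed above 0 under every scaling tried.

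**Figure D2:**
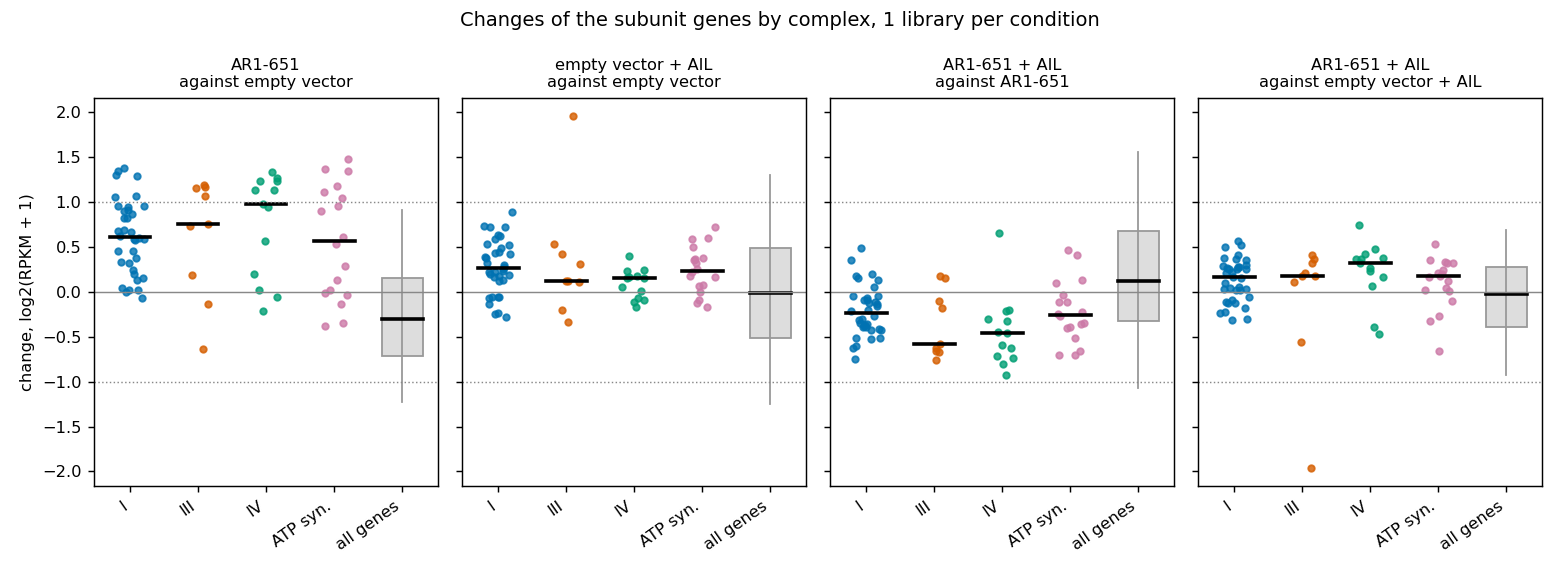
Difference in log2(RPKM + 1) for each subunit gene (points), by complex, in the 4 comparisons, with black bars at the medians, dotted lines at 2-fold, and a box over the quartiles of all 14626 genes with a line from the 5 to the 95 percentile. With AR1-651 against empty vector the complex medians lie at 0.57 to 0.98 and that of all genes at -0.30, while with AIL in AR1-651 cells they lie at -0.24 to -0.58 (complex III is at -0.38 without UQCRHL) and that of all genes at 0.13; other scalings shift all of these together.

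Complex I consists of core subunits, which bind NADH and hold the iron-sulphur clusters that lead to ubiquinone, and of accessory subunits around them. All 6 raised genes were accessory (29 genes, median 0.69), and none of the 7 core genes was raised (median 0.34, or -0.03 with equal summed RPKM). NDUFB3, of the membrane arm, measured 57.1, 80.3, 150.4 and 115 RPKM and had the largest difference of complex I, 1.38 on the log2 scale. NDUFA1, a small membrane subunit needed for assembly of the complex, measured 195, 253, 495 and 295 RPKM (1.34). NDUFS4, which lies beside the NADH-binding module and is a known site of Leigh syndrome mutations, measured 82.5, 138, 205 and 195 RPKM (1.30). In these 3 genes empty vector gave the lowest value and AR1-651 the highest.

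NDUFA6, the subunit that anchors an acyl carrier protein, was at 57.7, 108, 143 and 139 RPKM and differed by 1.30 between AR1-651 and empty vector. NDUFS5 and NDUFB7 face the space between the membranes. NDUFS5 was at 354, 401, 743 and 520.5 RPKM (1.07), and NDUFB7 at 182, 279, 379.7 and 288 RPKM (1.06). All of them were again highest in AR1-651. Among the core genes, NDUFS1, the largest iron-sulphur subunit, was at 37.2, 35.7, 51.6 and 42.8 RPKM, a difference of 0.46. NDUFV1, the flavoprotein that takes electrons from NADH, was at 153, 129, 171 and 119 RPKM (0.15, below 0 under equal summed RPKM). The lowest difference of complex I was that of NDUFC2, at 61.0, 51.5, 58.4 and 47.3 RPKM (-0.06, above 0 under median-ratio scaling).

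Complex III ranged from 4 raised genes to the lowest difference of the set. UQCRH measured 437, 477, 999 and 633 RPKM, 2.29 times its empty vector level in AR1-651. UQCRQ, a small subunit bound to cytochrome b, measured 151, 187, 337 and 211 RPKM (2.24 times), and UQCR11, another small subunit, 138, 184, 309 and 207 RPKM (2.25 times). UQCRB, which binds near the ubiquinone site, was at 48.2, 52.6, 102 and 66.0 RPKM (2.12 times). These 4 were the raised genes of complex III, and each was highest in AR1-651. UQCR10, also a small subunit, was at 73.0, 63.4, 83.3 and 73.2 RPKM and differed by only 0.19 (-0.17 with equal summed RPKM). UQCRFS1, the Rieske iron-sulphur protein, was at 88.8, 95.6, 56.8 and 64.3 RPKM, 0.64 times its empty vector level and the lowest difference of the whole set (-0.64 on the log2 scale). Of the core proteins, UQCRC1 was at 141, 204, 236 and 219.9 RPKM (0.74) and UQCRC2 at 126, 99.3, 115 and 128 RPKM (-0.13, above 0 under median-ratio scaling).

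Complex IV had the highest median of the 4 complexes. COX7A2, a liver-type subunit also found outside liver, measured 261, 306, 660.0 and 394 RPKM, a difference of 1.33. COX7B was at 172, 226, 416 and 303 RPKM (1.27), COX6A1 differed by 1.23 and COX6C, at 228, 256, 502 and 287 RPKM, by 1.14. COX4I1, the largest subunit from a nuclear gene, measured 458, 509, 1006 and 614 RPKM (1.13). The last of the raised genes was COX7A2L, which takes part in joining complexes III and IV into supercomplexes, at 84.2, 74.8, 199 and 104 RPKM (1.23). All 6 were highest in AR1-651. COX5A, at 142, 143, 136 and 108 RPKM, and COX8A, at 462, 478, 399 and 346 RPKM, were the lowest, with differences of -0.06 and -0.21 that were above 0 under median-ratio scaling.

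In ATP synthase the membrane subunits that join 2 enzymes into a dimer differed most. Their median was 1.18 over 5 genes, of which 4 were raised. ATP5MF, subunit f, measured 321, 528, 894 and 625 RPKM, 2.79 times its empty vector level in AR1-651 and the highest difference of the set (1.48). ATP5MK was at 275, 343, 699 and 430.3 RPKM (1.34), ATP5MJ at 151, 227, 343 and 260.2 RPKM (1.18), and ATP5ME differed by 1.11. ATP5MG, subunit g, at 142, 183, 276 and 228 RPKM, stayed just under the 2-fold limit (0.95).

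The catalytic head, F1, was uneven. ATP5F1C, the gamma subunit that turns inside the head, measured 155, 235, 399.8 and 342 RPKM (1.36), and ATP5F1E, the epsilon subunit, 391, 455, 809.7 and 496 RPKM (1.05). ATP5F1A, the alpha subunit, was at 360.3, 359, 396 and 334 RPKM (0.14), and ATP5F1B differed by -0.01, both with a sign that changed with the scaling. The median of the 5 F1 genes was 0.14, or -0.23 with equal summed RPKM. The 3 genes ATP5MC1, ATP5MC2 and ATP5MC3 encode the same mature subunit c of the rotor ring. ATP5MC1 was at 101, 106, 98.0 and 107 RPKM (-0.04), ATP5MC2 at 184, 164, 141 and 131 RPKM (-0.38) and ATP5MC3 at 51.4, 61.3, 63.1 and 61.7 RPKM (0.29). The sign of the first and the third changed with the scaling, and none was raised or lowered. The peripheral stalk, which holds the head still, had none of 4 genes raised (median 0.32, or -0.05 with equal summed RPKM). Its gene ATP5PB was at 98.3, 90.3, 76.8 and 102 RPKM (-0.35), and the inhibitor ATP5IF1 at 313, 407, 453 and 418 RPKM (0.53).

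Since many of these genes were higher together with AR1-651, their promoters were read for 4 short motifs of factors that are known to bind promoters of respiratory genes. The windows run from 250 bases before to 50 after the RefSeq start (GRCh38.p14), and 64 of the 76 genes had one. Both strands were searched and overlapping matches counted. The NRF1 core GCATGCGC was in 17.2% of the 64 and in 5.70% of the 11173 kept genes with a window (3.27% of all 27305 windows). The YY1 core AAGATGG was in 23.4% against 7.58% (6.06% of all windows), the GABPA core CGGAAG in 39.1% against 32.7% (19.9%), and the SP1 core GGGCGG in 64.1% against 68.3% (44.6%). Of the 18 raised genes with a window, 66.7% held the GABPA core, 22.2% the NRF1 core, 16.7% the YY1 core and 66.7% the SP1 core. Of the other 46, 28.3%, 15.2%, 26.1% and 63.0% did. These are matches of letters, not measured binding.

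To show what such windows look like at both ends of the AR1-651 difference, the 150 bases before the start are given for the 2 highest genes (NDUFB3 and ATP5F1C) and the 2 lowest (UQCRFS1 and ATP5MC2) among genes whose window could be printed. Matches are in capitals. NDUFB3 (chr2:201071851-201072000, plus strand) held no match in this stretch. ATP5F1C (chr10:7788027-7788176, plus strand) held a GABPA core and, near its 3′ end, 2 overlapping NRF1 cores on opposite strands. UQCRFS1 (chr19:29213152-29213301, minus strand) held 1 SP1 core on its opposite strand, and ATP5MC2 (chr12:53676084-53676233, minus strand) held 1 NRF1 core. The NRF1 core was thus present at either end of the range.
NDUFB3: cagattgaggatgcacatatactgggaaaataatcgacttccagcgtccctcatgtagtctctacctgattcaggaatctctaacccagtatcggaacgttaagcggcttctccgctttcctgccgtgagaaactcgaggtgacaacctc
ATP5F1C: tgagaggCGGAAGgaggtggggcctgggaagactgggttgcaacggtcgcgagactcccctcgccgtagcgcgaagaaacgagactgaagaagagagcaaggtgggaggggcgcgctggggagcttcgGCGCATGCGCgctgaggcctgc
UQCRFS1: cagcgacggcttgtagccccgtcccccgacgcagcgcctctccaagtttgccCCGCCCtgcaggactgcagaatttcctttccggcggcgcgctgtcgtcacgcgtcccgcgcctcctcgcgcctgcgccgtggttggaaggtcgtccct
ATP5MC2: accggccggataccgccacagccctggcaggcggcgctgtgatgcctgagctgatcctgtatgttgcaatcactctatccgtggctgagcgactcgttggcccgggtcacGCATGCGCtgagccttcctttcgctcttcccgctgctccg

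The subunit transcripts are short, and short transcripts as a group were higher with AR1-651 in these libraries. Median transcript length was 844 nt over the 75 subunit genes with a length, against 2561 nt for all genes with one. Across genes, the difference and the length had a Spearman rho of -0.41 in the set (n = 75) and -0.41 over all genes (n = 14005). Within the shortest sixth of all genes (54 to 1254.5 nt), the 53 subunit genes had a median difference of 0.90 with 34.0% raised, and the 2281 other genes a median of 0.17 with 14.8% raised. Raised subunit genes had a median length of 675 nt and the others 960.5 nt. With the trend of the differences over length and GC content removed, the set's median was 0.66, that of all genes -0.02, and 15 genes were raised. The part of length in the difference was not tested otherwise. Expression level, as mean log2(RPKM + 1), also ran with the difference. Its rho was 0.42 in the set (n = 76) and 0.32 over all genes (n = 14626), and its part was not tested.

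**Figure D3:**
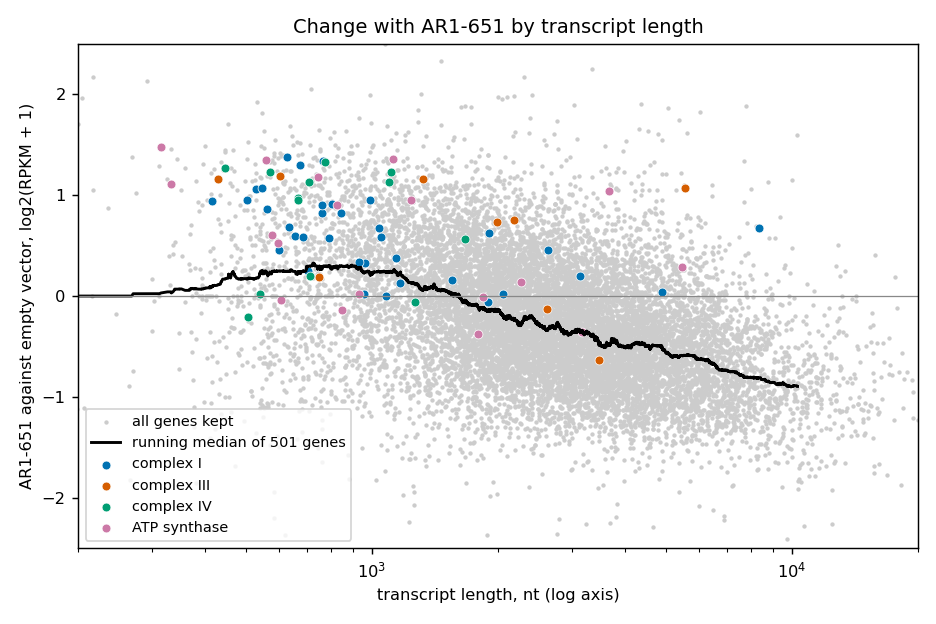
Difference in log2(RPKM + 1) between AR1-651 and empty vector against transcript length on a log axis, for all genes kept with a length (grey), their running median over 501 genes (black line) and the subunit genes coloured by complex; genes beyond the axes are not drawn. Most coloured points lie left of 2561 nt and above the running median.

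The second comparison addresses AIL in empty vector cells. Differences were small and mostly upward: 58 of the 76 genes were higher with AIL and 18 lower (48.3% and 51% of all genes), with a median of 0.22 against -0.02 for all genes kept. UQCRHL, listed at 0 in empty vector, was the only one to pass the 2-fold limit upwards (9.53% of all genes kept passed it), and none passed it downwards (9.03%), so that no gene measured above 0 in both libraries passed it. At 1.5-fold, 11 were raised (20.9% of all genes) and none lowered (22.1%). A sign change between settings occurred in 11 genes. The complex medians were 0.27 for complex I, 0.12 for complex III, 0.15 for complex IV (-0.05 with the length and GC trend removed) and 0.23 for ATP synthase.

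Apart from UQCRHL, the largest difference with AIL in empty vector cells was that of NDUFA6, which was 1.87 times as high with AIL (0.89). NDUFS4 followed with 0.73, then ATP5MF with 0.72, NDUFS7, a core iron-sulphur subunit at 180.4, 297, 289 and 263 RPKM, with 0.72, and NDUFA8, which faces the space between the membranes, at 131, 215, 232 and 262 RPKM, also with 0.72. All of these stayed under 2-fold. In the other complexes UQCRC1 differed by 0.53 and COX7B by 0.40. At the lower end were UQCRC2 (-0.34), COX7A2L (-0.17) and ATP5MC2 (-0.16). Of the 5 highest, NDUFA6, NDUFS4 and ATP5MF were also among the genes raised with AR1-651, in a comparison that shares the empty vector library.

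The third comparison addresses AIL in AR1-651 cells, where the direction was the opposite. With AIL, 62 of the 76 genes were lower and 14 higher, against 42.5% and 56.2% of all genes kept. The median difference was -0.31 for the set and 0.13 for all genes. None of the 76 passed the 2-fold limit in either direction, where 14.9% of all genes passed it upwards and 5.74% downwards. At 1.5-fold, 16 were lowered (14.7% of all genes) and 1, COX7B2, was raised (28.6%). With equal summed RPKM 48 genes were lower (median -0.13), and with median-ratio scaling 71 (median -0.52, with that of all genes at -0.03). Under every setting tried, 46 genes were lower and 4 higher. The AR1-651 library enters this comparison as well as the first, so its level of a gene moves both in opposite directions.

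Complex III had a median of -0.58 (-0.38 without UQCRHL), complex IV -0.45, ATP synthase -0.26 and complex I -0.24. COX7A2L came nearest to the 2-fold limit: 199 RPKM in AR1-651 and 104 with AIL, a difference of -0.93. COX6C (-0.80), NDUFA1 (-0.75), COX7A2 (-0.74), COX4I1 (-0.71) and ATP5F1E (-0.71) came next, apart from UQCRHL. In complex III the lowest apart from UQCRHL were UQCRQ (-0.68), UQCRH (-0.66) and UQCRB (-0.63). Each of these genes had been raised with AR1-651 and remained above its empty vector level with AIL. The genes of the F1 head were lower in 5 of 5 cases (median -0.35), as were the 5 membrane subunits of ATP synthase (median -0.40). Of the subunit c genes 2 of 3 were lower, and of the peripheral stalk genes 1 of 4.

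A few subunits differed the other way. COX7B2 went from 3.35 to 5.85 RPKM (0.66). NDUFV3, an accessory subunit beside the NADH site, measured 46.9, 71.2, 54.1 and 76.0 RPKM (0.48), and ATP5PO, the stalk protein that confers oligomycin sensitivity, 188, 211, 191 and 264 RPKM (0.47). These 3 and NDUFV2, an iron-sulphur subunit at 156, 209.5, 198 and 252 RPKM (0.35), were the genes above 0 under every setting. ATP5PB was 0.41 higher as deposited but changed sign with a setting, as did UQCRFS1 and UQCRC2 (0.18 and 0.16). The core subunits of complex I, with a median of -0.20, turned to 0.03 with the length and GC trend removed.

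Set side by side, 47 of the 76 genes were higher with AIL in empty vector cells and lower with AIL in AR1-651 cells, a pattern of 9.87% of all genes kept. Another 15 were lower in both (32.2% of all genes), 11 higher in both (38%), and 3 lower and then higher (2627 of the 14626 genes kept). The difference with AIL was lower in AR1-651 than in empty vector cells for 67 of the 76 genes (88.2%, against 39.8% of all genes), or for 52 with equal summed RPKM. It was lower for 35 of 36 genes of complex I, 6 of 9 of complex III, 12 of 13 of complex IV and 14 of 18 of ATP synthase. Gene lists described below shared these features in part. Of cytosolic ribosomal protein genes, 53.6% were higher with AIL in empty vector cells and lower in AR1-651 cells. The shares were 34.0% of assembly factors, 26.0% of mitochondrial ribosomal protein genes and 0% of biogenesis regulators. In the same order, the AIL difference was lower in AR1-651 than in empty vector cells for 91.7%, 78.7%, 80.5% and 30%. Across the 76 genes the AIL differences of the 2 backgrounds, which share no library, had a Spearman rho of 0.07, against 0.59 over all 14626 genes. ATP5MF was the most extreme case apart from UQCRHL. AIL took ATP5MF from 321 to 528 RPKM with empty vector and from 894 to 625 RPKM with AR1-651. Its AIL difference in AR1-651 minus that in empty vector cells was -1.23, and the median over the set was -0.54. The AIL difference between the backgrounds was not tested, since each rests on 1 library per condition.

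**Figure D4:**
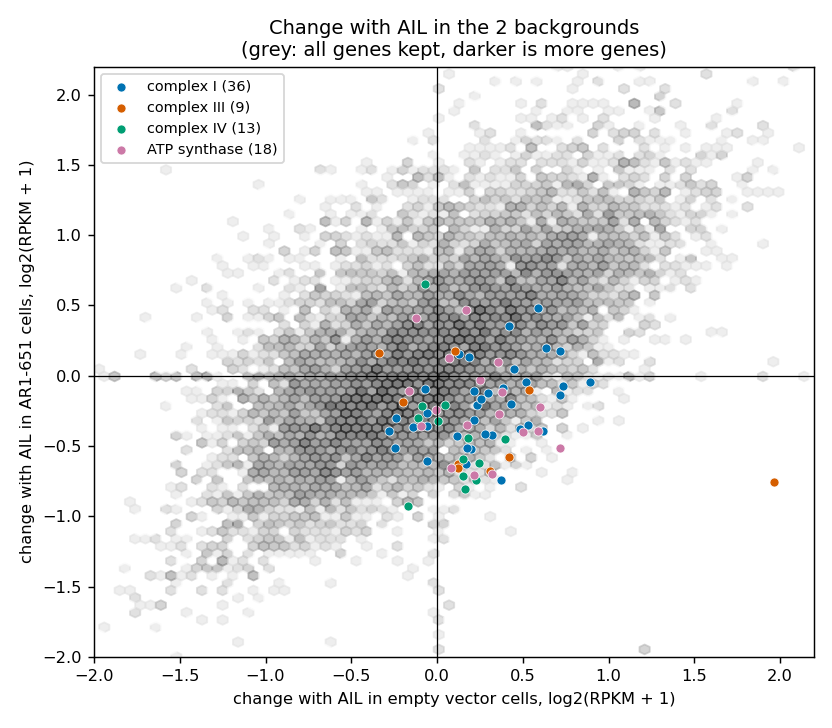
Difference with AIL in log2(RPKM + 1) in empty vector cells (horizontal) and in AR1-651 cells (vertical), for all genes kept (grey, darker for more genes) and the 76 subunit genes coloured by complex; genes beyond the axes are not drawn. Of the subunit genes, 47 fall in the lower right part (values as deposited), and the isolated point at far right is UQCRHL, listed at 0 in empty vector.

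The fourth comparison sets the cells with AIL beside each other. Between AR1-651 + AIL and empty vector + AIL, 58 of the 76 genes were higher and 18 lower (46.9% and 51.9% of all genes), with a median of 0.19 against -0.03 for all genes. None was raised (1.46% of all genes) and only UQCRHL, listed at 0 in AR1-651 + AIL, was lowered (3.53%). At 1.5-fold, COX7B2 was raised (7.73% of all genes) and ATP5F1D and UQCRHL were lowered (15.5%). The complex medians lay between 0.16 for complex I and 0.32 for complex IV. COX7B2 (0.75), NDUFA5 (0.56), ATP5F1C (0.54), NDUFB3 (0.52) and UQCRH (0.41) were the highest of their complexes or near it. The lowest were ATP5F1D, the delta subunit of the F1 head at 218, 246, 198 and 155 RPKM (-0.66), UQCRFS1 (-0.56), COX8A (-0.47) and, in complex I, NDUFB11, a membrane subunit from the X chromosome at 68.7, 81.0, 75.3 and 64.9 RPKM (-0.32). Sign changes between settings affected 25 genes. The differences between AR1-651 and empty vector without and with AIL, which share no library, had a Spearman rho of 0.60 across the 76 genes and 0.35 over all genes. GC content ran with the difference under AIL, with a rho of -0.53 in the set (n = 75) and -0.61 over all genes, and its part was not tested.

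The genes around the chain did not all move like its subunits. Complex II, which feeds electrons from succinate and lies wholly in nuclear genes, had none of 4 genes raised or lowered in any comparison. Of all genes, 1.46% to 14.9% were called in each direction, so with 4 genes this count does not set complex II apart. SDHA, its flavoprotein, was at 70.1, 49.7, 48.8 and 43.0 RPKM, and SDHB, its iron-sulphur protein, at 51.4, 82.1, 100.4 and 105 RPKM. Its members thus went in different directions with AR1-651, by -0.51 and 0.95. CYC1, cytochrome c1 of complex III, whose symbol lies outside the rule, was at 159, 218, 157 and 152 RPKM, and cytochrome c, CYCS, at 55.9, 64.0, 83.2 and 96.1 RPKM. NDUFAB1, the acyl carrier subunit of complex I, was at 86.3, 65.8, 73.3 and 55.4 RPKM, highest with empty vector.

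Of 47 assembly factors, which build the complexes without staying in them, 3 (6.38%, against 4.01% of all genes) were raised with AR1-651. None was lowered, against 11.6% of all genes, and the median was 0.38. With AIL, 6 (12.8%, against 9.53%) were raised in empty vector cells (median 0.40) and 3 (6.38%, against 14.9%) in AR1-651 cells. In the latter 1 was lowered, against 5.74% of all genes. The median of the factors there was -0.04, or 0.14 with equal summed RPKM. NDUFAF4, a complex I assembly factor, was at 26.0, 78.6, 23.8 and 111 RPKM, about as high in both libraries without AIL and higher in both with it. TACO1, which activates translation of a mitochondrially encoded complex IV subunit, was at 34.0, 95.4, 64.4 and 111 RPKM. The complex IV factor COX14 was at 54.2, 40.2, 109.9 and 51.9 RPKM, and was the one lowered with AIL in AR1-651 cells.

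The regulators of mitochondrial biogenesis differed in direction from the subunits with AR1-651, except with the length and GC trend removed, and with AIL in AR1-651 cells. Of 12 listed, 10 were kept. With AR1-651 as deposited, 3 of them were higher and 7 lower. None was raised (4.01% of all genes) and 1, GABPA, was lowered (11.6%). Their median was -0.32, against -0.30 for all genes, or 0.03 with the length and GC trend removed. With AIL, 3 (against 9.53% of all genes) were raised in empty vector cells (median 0.60) and 6 (against 14.9%) in AR1-651 cells (median 1.02). NRF1, which binds many promoters of respiratory genes, was at 5.17, 14.3, 7.16 and 17.6 RPKM. TFAM, which packages mitochondrial DNA and takes part in its transcription, was at 9.38, 18.9, 8.51 and 29.1 RPKM. GABPA was at 9.49, 8.11, 3.99 and 12.5 RPKM. All 3 had their highest value in AR1-651 + AIL, as had 5 of the 10 regulators, against 26.2% of all genes. Another 4 were highest in empty vector + AIL (21.3% of all genes) and 1 in AR1-651 (14.9%). The coactivator PPARGC1A was under 1 RPKM in every library.

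Ribosomal protein genes served as other lists of short, abundant transcripts. The 77 mitochondrial ribosomal protein genes had 11 (14.3%, against 4.01% of all genes) raised with AR1-651 (median 0.52), 20 (26.0%, against 9.53%) with AIL in empty vector cells (median 0.67) and 7 (9.09%, under the 14.9% of all genes) with AIL in AR1-651 cells (median 0.25). Of the 84 cytosolic ribosomal protein genes, 34 (40.5%, against 4.01% of all genes) were raised with AR1-651 (median 0.88). With AIL in empty vector cells, 2 (2.38%, against 9.53%) were raised (median 0.06, or -0.03 with equal summed RPKM). With AIL in AR1-651 cells, none was raised (14.9% of all genes) and 5 were lowered (5.74% of all genes). The median of the list there was -0.52. The subunit medians of 0.68, 0.22 and -0.31 had, as deposited, the same signs as those of the cytosolic ribosomal protein genes, as did the mitochondrial ones in the first 2 comparisons only. Leaving the cytosolic ribosomal protein genes out and scaling the rest to equal summed RPKM gave subunit medians of 0.52, 0.11 and -0.28. By that setting 15 subunit genes were raised with AR1-651. With equal summed RPKM over all genes, the subunit medians were 0.32, 0.13 and -0.13, and 4 subunit genes were raised with AR1-651.

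**Figure D5:**
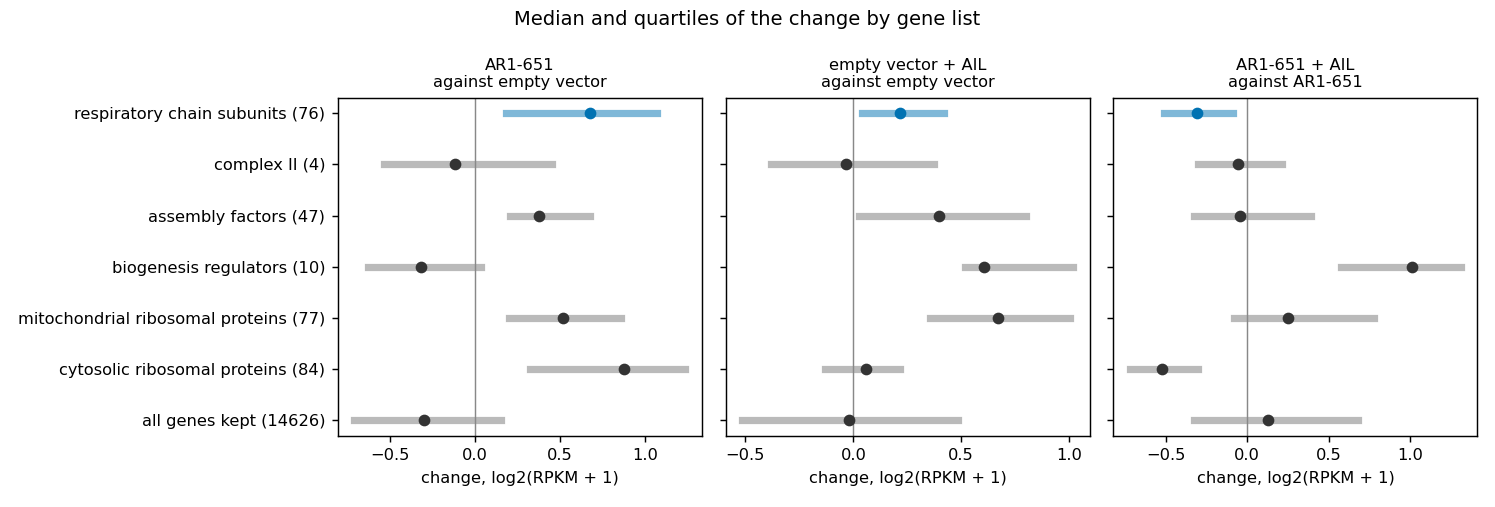
Median (point) and quartiles (bar) of the difference in log2(RPKM + 1) for the 76 subunit genes, 5 related gene lists and all genes kept, in 3 comparisons; the number of genes is in brackets. The subunits lie at 0.68, 0.22 and -0.31 as deposited, and the biogenesis regulators at -0.32, 0.60 and 1.02; the regulator median of -0.32 turns to 0.03 with the length and GC trend removed.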

How the data were processed

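Total RNA of 4 LNCaP cultures was sequenced (1 library per condition). The authors deposited RPKM values per Entrez gene, rounded to 2 decimals. The submitters' processing notes name BWA 0.7.10-r789 and hg19. The counting tool and annotation are not given in the sources used here. The labels name both a ribosomal RNA depletion kit and oligo(dT) beads. RPKM is relative to all mapped reads, so reads taken by some genes lower the others. It holds no read count: absolute depth and counting error are unknown.

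Symbols came from a RefSeq table (GRCh38.p14; 19703 of 19801 genes matched), length and GC content from GENCODE 29 through RefSeq identifiers, as medians over a gene's transcripts (75 of 76 members), and promoters from RefSeq (GRCh38.p14). Those windows carry their own coordinates, and none of hg19 was used.

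Genes that reached RPKM 1 in any library were kept, and differences computed on log2(RPKM + 1), which understates those of low genes. Raised or lowered means at least 2-fold on this scale. No p-value is given. Alternatives were a pseudocount of 0.1, no filter or RPKM of at least 5, a 1.5-fold threshold, median-ratio scaling and equal summed RPKM. Another left out cytosolic ribosomal protein genes and scaled the rest to equal summed RPKM. A further one removed a cubic trend (degree 3) over the ranks of transcript length and GC.

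The members and gene lists were chosen with earlier results of these data known, and the roles within complex I and ATP synthase were assigned after values were seen. Values in every library are given for members changed at least 2-fold, those with the highest or lowest change or level in a complex, core subunits, subunit c genes and tissue isoforms; any member may be named, except that 1 member, counted but not named, is not reported here. COX14, NDUFAF4 and TACO1 were named after their values were seen. Calculations were tested on simulated data and used Python 3.11.15, NumPy 2.4.6, pandas 2.3.3 and SciPy 1.17.1.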

Additional observations from a re-analysis of the deposited data

Results flagged for a closer look

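The results below are listed because AIL went one way with empty vector and the other way with AR1-651. None of these differences was tested, since each condition had 1 library. The median AIL difference of all 76 genes was 0.22 in empty vector cells and -0.31 in AR1-651 cells, -0.52 apart. For complex I the medians were 0.27 and -0.24 (-0.50 apart), for complex III 0.12 and -0.58 (-0.70 apart, with 0.12 and -0.38 without UQCRHL), for complex IV 0.15 and -0.45 (-0.60 apart), and for ATP synthase 0.23 and -0.26 (-0.49 apart). Equal summed RPKM narrows the gap between backgrounds, and median-ratio scaling widens it. With the length and GC trend removed, complex IV was at -0.05 in empty vector cells.

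Single genes are listed where the difference was at least 0.3 in each direction. The share of all genes that meet this limit was not computed. In ATP synthase these were ATP5MF, with a gap of -1.23 between the backgrounds, ATP5MK (-1.02), ATP5MJ (-0.98) and ATP5ME (-0.90), which are all membrane subunits. In complex I they were NDUFA1 (-1.12), NDUFB7 (-1.01), NDUFC1 (-0.88), NDUFB3 (-0.86) and NDUFA13 (-0.75). All of these are accessory subunits, as are 29 of the 36 complex I genes. The small subunits UQCR11 (-0.99) and UQCRQ (-0.99) of complex III and COX7B (-0.85) of complex IV completed the list. Genes listed at 0 in a library, such as UQCRHL, were left out of it.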

How the results depend on the processing

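With AR1-651 against empty vector, the 22 raised genes became 35 with median-ratio scaling, 4 with equal summed RPKM (UQCRHL among them) and 42 at 1.5-fold, and the count of lowered genes went from 0 to 1 with equal summed RPKM and 1 at 1.5-fold. With AIL in empty vector cells, the 1 raised gene became 0 with RPKM of at least 5 and 11 at 1.5-fold. With AIL in AR1-651 cells, the 0 lowered genes became 1 with a pseudocount of 0.1, 1 with equal summed RPKM and 1 without cytosolic ribosomal protein genes. Each time that gene was UQCRHL, listed at 0.69 RPKM in AR1-651 and 0 in AR1-651 + AIL. The lowered genes became 2 with median-ratio scaling, 16 at 1.5-fold and 5 with the length and GC trend removed. The 0 raised became 1 at 1.5-fold. With AR1-651 + AIL against empty vector + AIL, the 1 lowered gene became 0 with RPKM of at least 5 and 2 at 1.5-fold, and the 0 raised became 1 at 1.5-fold. The cause was not tested, except that the 1.5-fold threshold is looser and the RPKM limit of 5 drops UQCRHL by construction. Leaving out UQCRHL, an alternative chosen after seeing the data, took the 1 raised gene with AIL in empty vector cells and the 1 lowered gene between the cells given AIL to 0. The other 53 counts of this kind stayed within 1.5 times, and no median of the 76 genes changed sign under any of these alternatives. At 1.5-fold, 10.7% of all genes were raised with AR1-651, and 14.7% were lowered with AIL in AR1-651 cells.

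No paired analysis was possible because each condition had 1 library, and leaving out a library was not done for the same reason. Absolute depth is unknown, so values near 1 RPKM, such as those of COX6B2, COX7B2 and UQCRHL, have an unknown counting error.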
